A study of Mus musculus with 12 samples.

Results

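The interferon-linked PARP genes Parp9, Parp12, Parp14 and Parp3, with Parp1 set beside them, were followed across brain RNA of 4 mouse genotypes. Members were chosen by name, as every probe set that the platform annotation pairs with 1 of these 5 genes. The genes, and the gene lists used below, were chosen with earlier results of these data known. Their shares of calls are therefore descriptive. This gave 8 probe sets of the 22690 in the table, and the 5 genes were 5 of 12393 genes tested. Parp1 had 3 probe sets, Parp3 had 2, and Parp9, Parp12 and Parp14 had 1 each.

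PARP enzymes take ADP-ribose from NAD and attach it to proteins or nucleic acids, as a single unit or as a chain. Parp1, the founding member, senses DNA breaks in the nucleus and builds long poly(ADP-ribose) chains there, and Parp3 acts in the repair of double-strand breaks. Parp9, Parp12 and Parp14 are known as interferon-stimulated genes with roles in antiviral defence, and most of that knowledge comes from immune cells and cell lines rather than from brain.

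RNA came from brain lysate of untreated adult mice kept specific-pathogen-free, and each sample was read on 1 Affymetrix 3' expression array. The genotypes were USP18ko, which lacks Usp18, USP18ko:IFNARko, which lacks Usp18 and the type I interferon receptor gene Ifnar1, IFNARko, which lacks Ifnar1 alone, and wild type (WT), with 3 arrays each. Usp18 is a protease that removes ISG15 from proteins and holds back signalling from the Ifnar1 receptor. The labels do not give the alleles, the sex or the ages beyond adult, nor whether each replicate was its own animal, and if not, the spread behind the p-values may be technical. Differences are in log2 signal, so a value of 1 is a doubling of signal, and adjusted p-values come from limma with Benjamini-Hochberg adjustment over all 12393 genes of a comparison, with calls made under 0.05. In bulk tissue, fewer cells of a type and less RNA per cell cannot be told apart.

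Some arrays stood apart. Ifnar1 read 6.24 to 6.68 in the 6 arrays of IFNARko and USP18ko:IFNARko, against 7.44 to 8.21 in the 6 USP18ko and WT arrays, and Usp18 read 3.50 to 3.76 outside WT, against 4.04 to 4.36 in WT. The Usp18 levels lie low in the range of all values, 2.36 to 13.81, and IFNARko arrays were as low as USP18ko arrays. In IFNARko replicate 1 the 3' probe set of beta-actin exceeded the 5' one by 1.48, against 0.20 to 0.54 in the other 11 arrays, and values without it are given where it moves a result. Xist was high in all 3 USP18ko:IFNARko arrays and in WT replicate 1 (10.17 to 11.34) and read 4.98 to 5.69 in the other 8, while the Y-linked Eif2s3y read 3.05, 7.16 and 3.22 in USP18ko:IFNARko and 3.18 in WT replicate 1. The part of sex in the comparisons with USP18ko:IFNARko was examined only with Eif2s3y as a covariate. Eif2s3y does not follow Xist throughout, since USP18ko:IFNARko replicate 2 read high for both. In comparisons of USP18ko:IFNARko with USP18ko or IFNARko, sex as read by Xist cannot be told apart from genotype. The interaction includes the difference of USP18ko:IFNARko from IFNARko, and so this limit. Brain identity was checked on 7 measured neuron markers, whose mean log2 signal was 9.60 to 10.59 over the 12 arrays.

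The promoters of Parp12, which rose in USP18ko, and of Parp1, which did not pass, are shown for contrast from RefSeq (GRCm38.p6), each from 250 bases before to 50 after the start, 5′ to 3′ on the gene's own strand. The table holds promoters for 3 of the 5 genes, and Parp9 and Parp14 are named only. Parp12 lies on the minus strand at chr6:39118300-39118599 and Parp1 on the plus strand at chr1:180568641-180568940.
Parp12: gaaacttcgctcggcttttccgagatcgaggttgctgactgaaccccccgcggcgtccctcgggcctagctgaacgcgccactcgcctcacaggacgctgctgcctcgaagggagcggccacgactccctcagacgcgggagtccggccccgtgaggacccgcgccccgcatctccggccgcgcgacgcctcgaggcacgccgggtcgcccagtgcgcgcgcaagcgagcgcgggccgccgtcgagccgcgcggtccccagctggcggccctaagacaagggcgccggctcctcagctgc
Parp1: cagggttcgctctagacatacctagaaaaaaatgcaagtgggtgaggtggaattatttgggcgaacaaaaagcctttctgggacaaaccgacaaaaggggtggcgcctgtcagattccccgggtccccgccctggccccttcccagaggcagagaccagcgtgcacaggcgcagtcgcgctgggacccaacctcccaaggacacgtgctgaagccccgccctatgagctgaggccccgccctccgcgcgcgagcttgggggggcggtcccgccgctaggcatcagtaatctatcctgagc
Both windows, and that of Parp3, were searched on both strands for GAAANNGAAA, a core of the interferon-stimulated response element, and for TTCNNNGAA, a core of the gamma-activated site that reads the same on both strands. Neither set of letters occurs in these 3 windows, while 3.44% and 8.3% of all 32851 promoter windows hold them. Of the Parp12 window 73.7% is G or C, against 62% for Parp1.

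Loss of Usp18 with the receptor gene intact was examined first. Parp9, Parp12 and Parp14 rose together in USP18ko brain, 4.71-fold, 4.80-fold and 5.12-fold on the signal scale, and Parp1 and Parp3 did not pass the test. Of the 5 genes 3 were called, all higher, where 1.15% of all genes tested were called in either direction. The median log2 difference of the 5 genes was 2.24, beside -0.02 for all genes.

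Parp9, which has little catalytic activity of its own and works in a complex with the ubiquitin ligase Dtx3l, read 8.26, 7.89 and 8.03 in USP18ko, against 5.92, 5.85 and 5.70 in WT. It read 5.66, 5.53 and 5.47 in USP18ko:IFNARko and 5.96, 5.41 and 5.53 in IFNARko. The USP18ko arrays all lay above the other 9, which spanned 5.41 to 5.96. For 4.07% of all genes the USP18ko arrays all lay above the WT arrays. The share above all of the other 9 was not counted. The group means were 8.06 ± 0.19 in USP18ko, 5.55 ± 0.10 in USP18ko:IFNARko, 5.63 ± 0.29 in IFNARko and 5.83 ± 0.11 in WT (SD, n = 3 each). USP18ko exceeded WT by 2.24 (SE 0.15, 95% confidence interval 1.92 to 2.55, limma adjusted p = 1.10e-06). Dtx3l was not measured as a single gene here.

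Parp12, a zinc-finger PARP that attaches single ADP-ribose units and is known as an antiviral factor, read 8.55, 8.24 and 8.30 in USP18ko, against 6.15, 6.31 and 5.83 in WT. In USP18ko:IFNARko it read 5.80, 6.0 and 5.68, and in IFNARko 6.03, 6.15 and 6.11. Again the USP18ko arrays stood clear of the other 9, which spanned 5.68 to 6.31. They lay above the WT arrays for 4.07% of all genes. The USP18ko mean was 8.36 ± 0.16 and the WT mean 6.10 ± 0.25 (SD, n = 3 each), a difference of 2.26 (SE 0.14, 95% confidence interval 1.97 to 2.56, limma adjusted p = 6.37e-07).

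Parp14, a PARP with macrodomains that bind ADP-ribose, known as a cofactor of Stat6, read 7.16, 6.63 and 7.28 in USP18ko, against 4.92, 4.49 and 4.59 in WT. In USP18ko:IFNARko it read 4.33, 4.14 and 4.51, and in IFNARko 5.0, 4.27 and 4.40. The USP18ko arrays lay above all of the other 9, whose highest value, 5.0, came from IFNARko replicate 1. Separation from the WT arrays in this direction was seen for 4.07% of all genes. The difference from WT was 2.36 (SE 0.21, 95% confidence interval 1.90 to 2.81, limma adjusted p = 1.99e-05), from means of 7.02 ± 0.34 in USP18ko and 4.66 ± 0.23 in WT (SD, n = 3 each). The intervals of Parp9, Parp12 and Parp14 overlap one another. USP18ko replicate 2 was the lowest USP18ko array for each of these 3 genes.

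**Figure D1:**
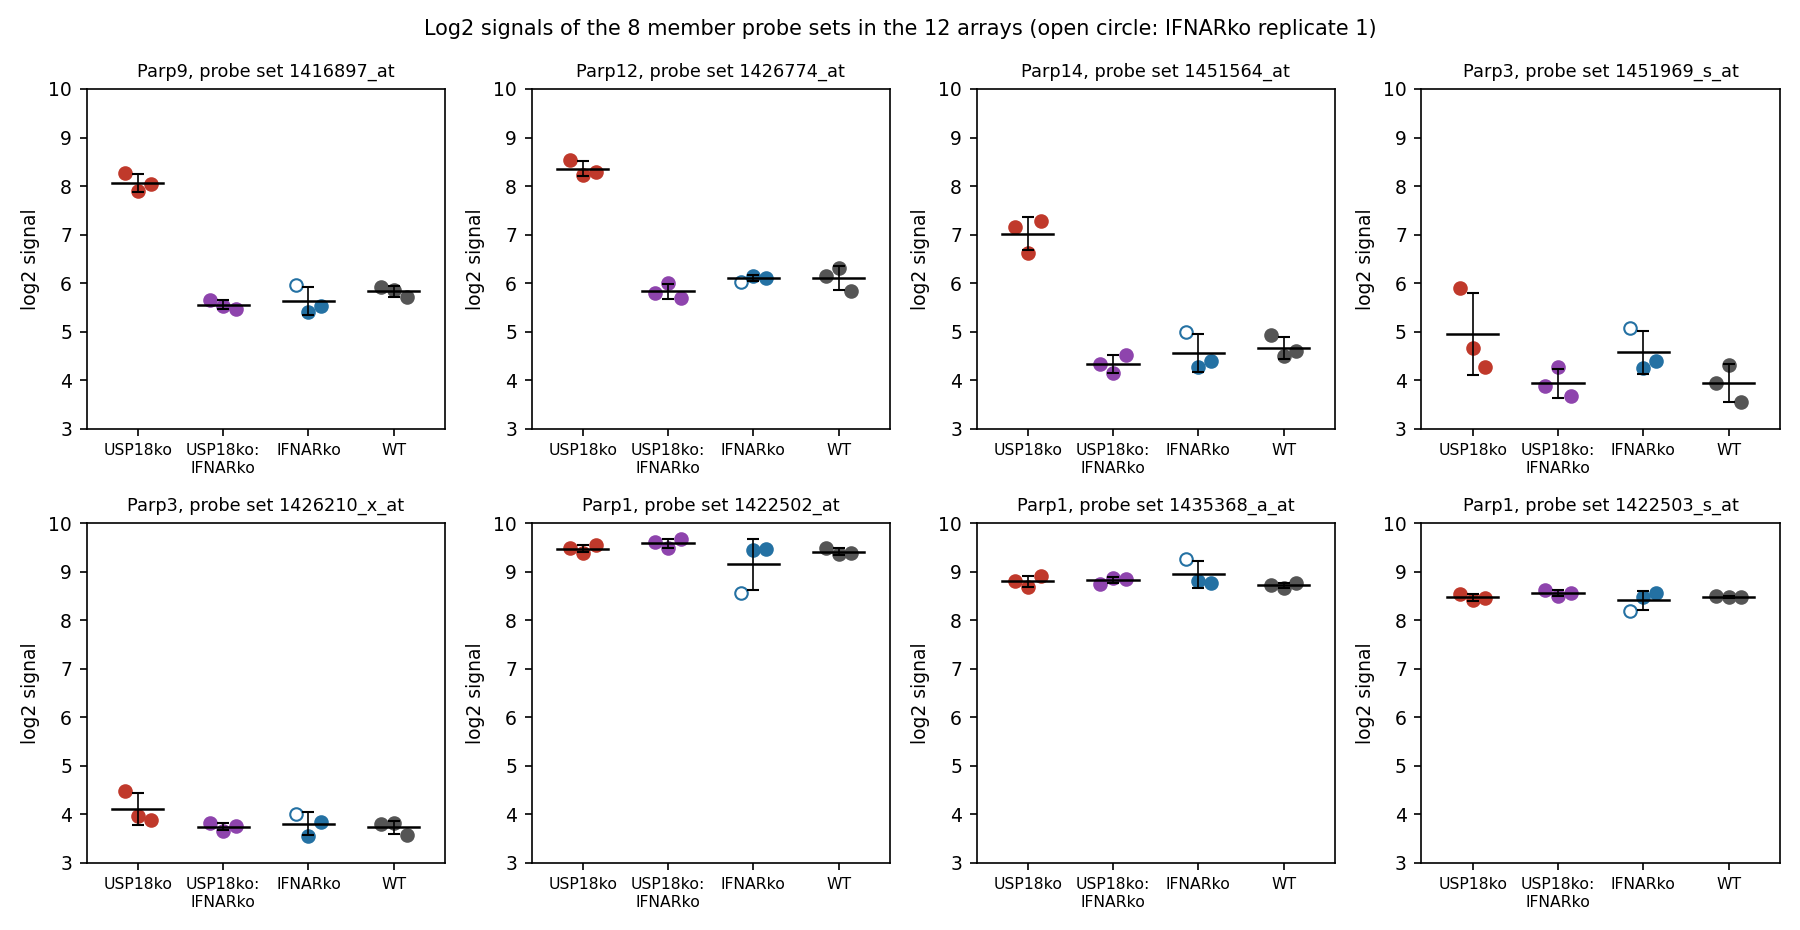
Log2 signal (vertical axis) of each of the 8 probe sets in the 12 arrays, by genotype; points are arrays, the line is the mean and the bar is the SD of 3 arrays, and the open circle is IFNARko replicate 1. The USP18ko points of Parp9, Parp12 and Parp14 lie above all of the other 9 points, while those of Parp1 lie among them.

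Parp3 was low and variable. Its brighter probe set read 5.89, 4.66 and 4.28 in USP18ko, against 3.94, 4.32 and 3.54 in WT. It read 3.87, 4.26 and 3.68 in USP18ko:IFNARko and 5.07, 4.25 and 4.39 in IFNARko. The USP18ko and WT arrays overlapped, and the highest value came from USP18ko replicate 1. The difference from WT was 1.01 (SE 0.36, 95% confidence interval 0.24 to 1.79), which did not pass (unadjusted p = 0.0141, limma adjusted p = 0.562). Without USP18ko replicate 1 it was 0.54 (limma adjusted p = 1.00). The other Parp3 probe set read 4.48, 3.96 and 3.88 in USP18ko, against 3.80, 3.82 and 3.56 in WT, a difference of 0.38 with no overlap of the groups (limma adjusted p = 1.00 over all probe sets). Groups were without overlap, with USP18ko higher, for 4.07% of all genes. Both probe sets are of kinds that can bind related transcripts, and their mean signals exceeded those of 17.7% and 11.8% of all probe sets, with no detection calls used here.

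Parp1 read 9.48, 9.40 and 9.55 in USP18ko, against 9.49, 9.37 and 9.39 in WT, on its brightest probe set. Its USP18ko and WT arrays overlapped. The difference was 0.06 (SE 0.19, 95% confidence interval -0.36 to 0.48, limma adjusted p = 1.00), and the upper bound lies below the lower bounds of Parp9, Parp12 and Parp14. The other Parp1 probe sets differed by 0.08 (95% confidence interval -0.21 to 0.36) and -0.01 (95% confidence interval -0.24 to 0.22).

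**Figure D2:**
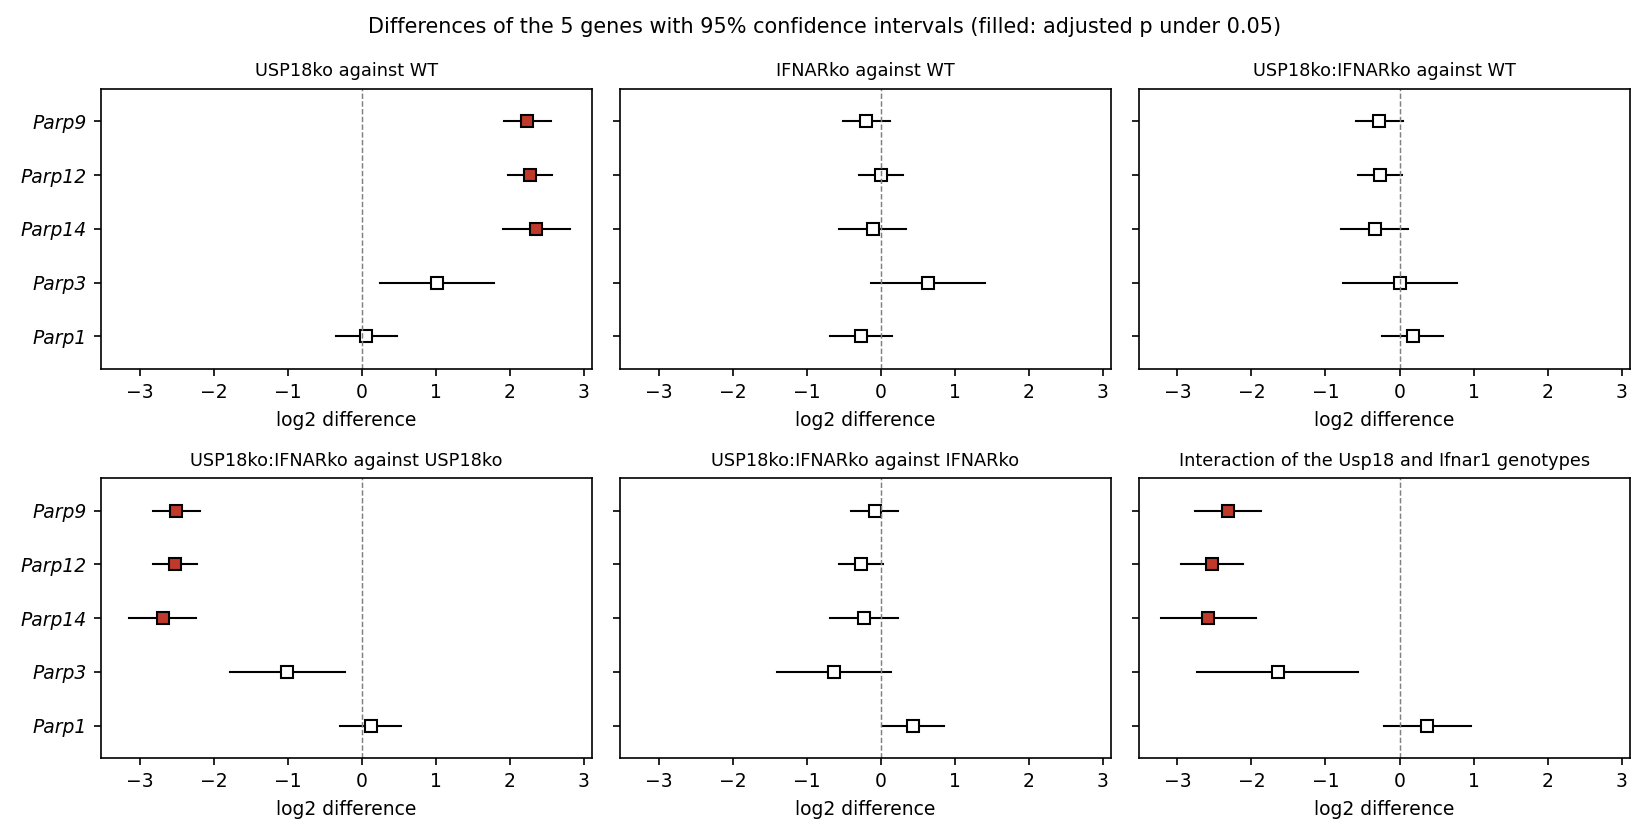
Log2 differences (horizontal axis) of the 5 genes in the 6 comparisons, with 95% confidence intervals as bars; filled squares have an adjusted p under 0.05. Parp9, Parp12 and Parp14 lie above 0 in USP18ko against WT and below 0 in USP18ko:IFNARko against USP18ko and in the interaction, and no square is filled in the other 3 panels.

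Removal of the receptor gene from the Usp18-deficient background was examined next. Parp9, Parp12 and Parp14 fell in USP18ko:IFNARko against USP18ko, with log2 differences of -2.51 (SE 0.15, limma adjusted p = 3.08e-07), -2.53 (SE 0.14, limma adjusted p = 1.63e-07) and -2.69 (SE 0.21, limma adjusted p = 4.29e-06). As levels, the means were 5.55 ± 0.10 in USP18ko:IFNARko and 8.06 ± 0.19 in USP18ko for Parp9, 5.83 ± 0.16 in USP18ko:IFNARko and 8.36 ± 0.16 in USP18ko for Parp12, and 4.33 ± 0.19 in USP18ko:IFNARko and 7.02 ± 0.34 in USP18ko for Parp14 (SD, n = 3 each). These 3 of 5 calls, all lower, stand beside 1.51% of all genes called in either direction. The USP18ko arrays are the same as in the comparison with WT, so both comparisons share them. With Eif2s3y as a covariate they differed by -2.57, -2.50 and -2.93 and were called (limma adjusted p = 1.11e-05, 9.54e-06 and 3.21e-05). That fit cannot separate genotype from sex as read by Xist, which was high in every USP18ko:IFNARko array and low in every USP18ko array.

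Parp3 and Parp1 did not pass in that comparison. Parp3 differed by -1.01 (95% confidence interval -1.78 to -0.24, unadjusted p = 0.0146, limma adjusted p = 0.490), with all 3 USP18ko:IFNARko arrays just below the USP18ko arrays, the closest pair being 4.26 and 4.28. Such separation in the lower direction was seen for 8.09% of all genes. The other Parp3 probe set differed by -0.36, with the same separation, and did not pass either. With array weights the Parp3 difference was -1.11 and passed (limma adjusted p = 0.0305), and without USP18ko replicate 1 it was -0.53 (limma adjusted p = 1.00). Parp1 differed by 0.12 (95% confidence interval -0.30 to 0.53, limma adjusted p = 1.00), with 9.62, 9.49 and 9.67 in USP18ko:IFNARko.

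The effect of Usp18 loss was then set side by side with and without the receptor gene. Without it, in USP18ko:IFNARko against IFNARko, Parp9 differed by -0.08 (95% confidence interval -0.40 to 0.24), Parp12 by -0.27 (-0.57 to 0.03) and Parp14 by -0.23 (-0.68 to 0.23). Without IFNARko replicate 1 these differences were 0.083, -0.30 and -0.0063, so that of Parp9 turned its sign. Parp3 differed by -0.63 (-1.41 to 0.14), or -0.38 without that array, and by -0.06 on its other probe set with all arrays kept. Limma called 0 of the 5 genes there, 1 having an unadjusted p under 0.05 (8.25% of all genes), and 0% of all genes. The interaction, which is this difference minus that of USP18ko against WT, was -2.32 for Parp9 (SE 0.21, limma adjusted p = 5.26e-05), -2.53 for Parp12 (SE 0.19, limma adjusted p = 1.42e-05) and -2.58 for Parp14 (SE 0.30, limma adjusted p = 3.97e-04). These 3 of 5 calls stand beside 0.847% of all genes called in the interaction. Without IFNARko replicate 1 the interactions were -2.15, -2.57 and -2.36 and passed (limma adjusted p = 1.77e-05, 2.20e-05 and 2.95e-04). For Parp3 the interaction was -1.65 (95% confidence interval -2.74 to -0.56, limma adjusted p = 0.40), and for Parp1 0.38 (-0.21 to 0.97, limma adjusted p = 0.941). Without IFNARko replicate 1 they were -1.40 and 0.077 (limma adjusted p = 0.634 and 0.998). On the other probe sets, with all arrays kept, the interaction was -0.44 for Parp3 and -0.20 and 0.16 for Parp1.

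Parp12 was lower in all 3 USP18ko:IFNARko arrays than in all 3 IFNARko arrays, as were 11.2% of all genes, and its difference passed only with array weights (-0.30, limma adjusted p = 0.0391). Parp1 was the gene with an unadjusted p under 0.05 in that comparison, at 0.44 (limma adjusted p = 0.566), with all 3 USP18ko:IFNARko arrays above the IFNARko arrays, as for 9.28% of all genes. Without IFNARko replicate 1 the Parp1 difference was 0.14. On the other Parp1 probe sets, with all arrays kept, it was -0.12 and 0.15, with overlap of the groups.

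The genotypes without the receptor gene were also compared with WT. Limma called 0 of the 5 genes in USP18ko:IFNARko against WT and 0 in IFNARko against WT, with 0 and 0 at an unadjusted p under 0.05, beside 0.0161% and 0.00807% of all genes called and 4.09% and 9.79% at that unadjusted p. In USP18ko:IFNARko, Parp9 differed from WT by -0.27 (95% confidence interval -0.59 to 0.04), Parp12 by -0.27 (-0.57 to 0.03) and Parp14 by -0.34 (-0.79 to 0.12). All 3 Parp9 arrays lay below the WT arrays, as in 10.3% of all genes, while Parp12 and Parp14 overlapped with WT. Parp3 differed by 0.01 (-0.77 to 0.78) and Parp1 by 0.18 (-0.24 to 0.59).

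In IFNARko against WT, Parp9 differed by -0.19 (95% confidence interval -0.51 to 0.12), Parp12 by 0.00 (-0.30 to 0.30) and Parp14 by -0.11 (-0.57 to 0.34). The signs of the Parp12 and Parp14 values turned under other settings. Without IFNARko replicate 1 the Parp9 difference was -0.36 and that of Parp14 -0.33. Parp3 differed by 0.64 (-0.13 to 1.41), or 0.39 without IFNARko replicate 1, and by 0.07 on its other probe set with all arrays kept. Below USP18ko, then, the order of the group means was WT, IFNARko and USP18ko:IFNARko for Parp9 and Parp14, and IFNARko, WT and USP18ko:IFNARko for Parp12, and no neighbours in these orders differed beyond their spread.

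Parp1 depended on the probe set in 1 array. In IFNARko replicate 1 its brightest probe set read 8.55, against 9.37 to 9.67 in the other 11 arrays, while a further probe set of the same gene read 9.26, against 8.67 to 8.92. The remaining probe set read 8.19 there, against 8.41 to 8.62 elsewhere. The probe sets of Parp1 thus disagreed in direction in the array with the high beta-actin 3' to 5' difference, and the part of RNA or labelling quality was not tested. The Parp1 difference of IFNARko from WT was -0.26 (limma adjusted p = 0.612), and 0.039 without that array.

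The genes whose profiles over the 12 arrays lay closest to each called PARP gene were found by the root mean square difference between log2 profiles, each centred on its own mean. Closest to Parp9 were Gbp7, a guanylate-binding protein gene, Oasl1 and Oas1a, of the oligoadenylate synthetase family, at 0.170 each. Closest to Parp12 were Ifi35 (0.185), Parp9 (0.192) and Oas1a (0.232). Closest to Parp14 were Gbp7 (0.176), Parp9 (0.182) and Ddx60, a helicase gene (0.209). Parp12 and Parp14 were 0.306 apart, and the distance to Parp1 was 1.07 for Parp9, 1.04 for Parp12 and 1.14 for Parp14. Against WT in USP18ko, Gbp7 rose by 2.23, Oasl1 by 2.27, Oas1a by 2.39, Ifi35 by 2.25 and Ddx60 by 2.08 (limma adjusted p of 4.40e-07 to 5.24e-05). Each of these genes was highest in the 3 USP18ko arrays, a gap that the measure counts.

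**Figure D3:**
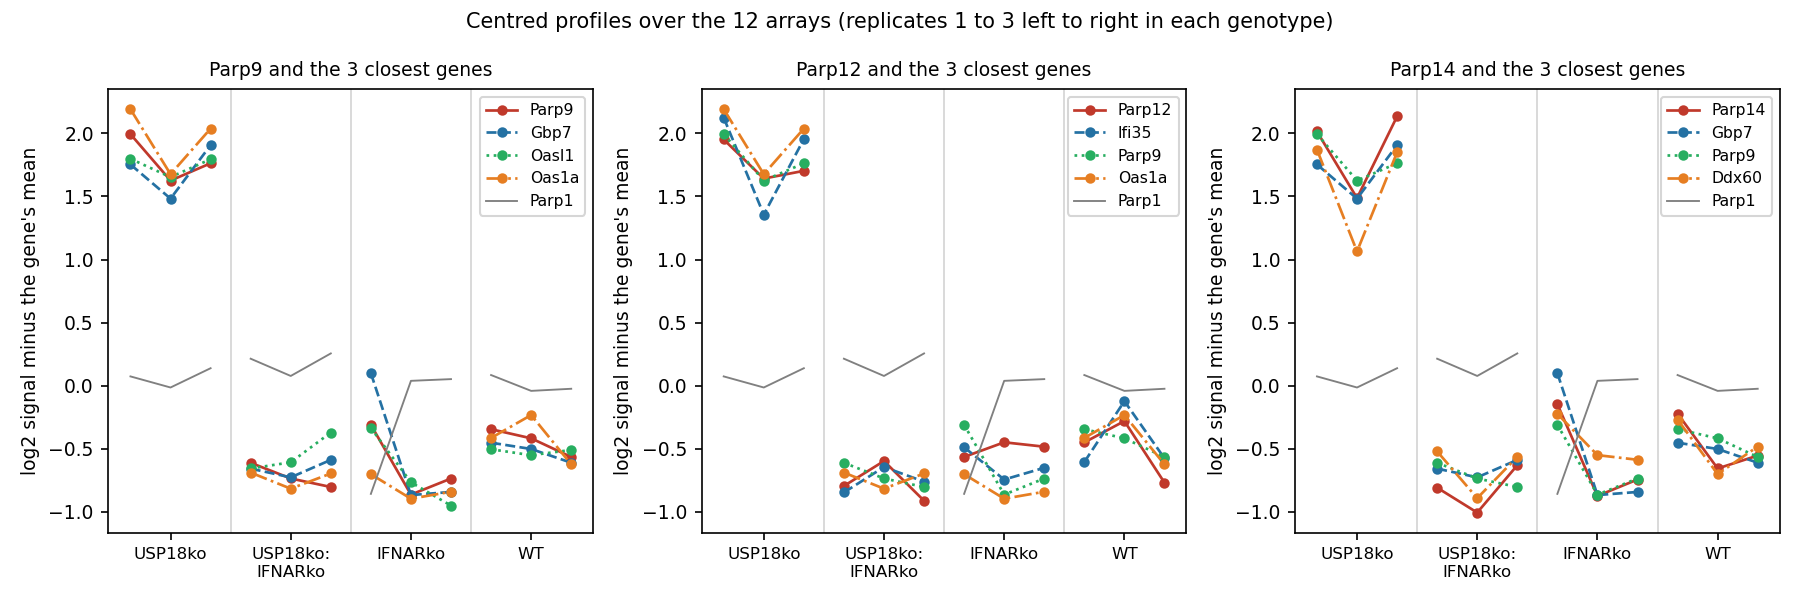
Log2 signal minus the gene's mean (vertical axis) in the 12 arrays, replicates 1 to 3 from left to right within each genotype, for Parp9, Parp12 and Parp14 with their 3 closest genes and Parp1 in grey. All genes but Parp1 are highest in the 3 USP18ko arrays, and Parp1 dips in IFNARko replicate 1.

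The promoters of Gbp7, closest to both Parp9 and Parp14, and of Oas1a, among the closest to Parp9 and Parp12, are shown because they hold the letters that the Parp12 window lacks. Capitals mark matches to either motif. Gbp7 lies on the plus strand at chr3:142530086-142530385 and Oas1a on the minus strand at chr5:120907476-120907775 (RefSeq, GRCm38.p6).
Gbp7: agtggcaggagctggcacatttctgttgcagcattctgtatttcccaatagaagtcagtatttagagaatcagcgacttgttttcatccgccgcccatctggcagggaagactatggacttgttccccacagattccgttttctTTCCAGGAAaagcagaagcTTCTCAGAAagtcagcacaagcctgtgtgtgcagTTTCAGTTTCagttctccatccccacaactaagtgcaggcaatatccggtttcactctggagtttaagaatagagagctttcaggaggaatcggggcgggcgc
Oas1a: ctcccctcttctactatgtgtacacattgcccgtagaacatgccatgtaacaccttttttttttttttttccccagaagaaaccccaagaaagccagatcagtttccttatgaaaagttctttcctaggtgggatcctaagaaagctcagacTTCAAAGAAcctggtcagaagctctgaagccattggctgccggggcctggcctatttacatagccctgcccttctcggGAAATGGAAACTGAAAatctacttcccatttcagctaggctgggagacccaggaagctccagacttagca
Gbp7 has 1 match to GAAANNGAAA, on the other strand as TTTCAGTTTC, and 2 to TTCNNNGAA. Oas1a has 2 matches to GAAANNGAAA, GAAATGGAAA and GAAACTGAAA, which overlap each other, and 1 to TTCNNNGAA. Ddx60 has 2 and 0 such matches, Ifi35 0 and 1, and Oasl1 none of either. These are descriptions of letters in short windows.

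Parp14 and Parp9 lie near each other in the reference order of protein-coding genes (GRCm38.p6), with only Dtx3l between them. Of the genes within 3 places of Parp9, Parp14 or Parp12 in that order, the measured ones apart from these were Kpna1, Fam162a, Sema5b, Tbxas1, Hipk2, Kdm7a and Slc37a3. In USP18ko against WT they differed by -0.22 for Sema5b to 0.45 for Kdm7a, and none of these 7 passed (limma adjusted p = 1.00 each).

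The other PARP family members that were measured did not follow. Of 11 further family members 7 were measured, and 0 passed in USP18ko against WT by limma (1 at an unadjusted p under 0.05, beside 4.6% of all genes), with a median of -0.08 beside -0.02 for all genes. Their differences ran from -0.33 for Parp16, a PARP of the endoplasmic reticulum, to 0.29 for Parp4, found in vault particles. Parp2, which shares DNA repair tasks with Parp1, differed by -0.06, and Tiparp, a target of the aryl hydrocarbon receptor, by -0.12. The probe set that could report Parp10 was also annotated to Plec, so no value is given for it. Parp11, Tnks and Zc3hav1 were not measured as single genes either, so the family is covered only in part.

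Genes that act around ADP-ribose did not pass either. Of 9 measured genes that remove or read ADP-ribose, 14 of DNA strand-break repair and 17 of NAD synthesis and use, limma called 0, 0 and 0 in USP18ko against WT. At an unadjusted p under 0.05 there were 0, 0 and 0. Of all genes, 1.15% were called there and 4.6% had such an unadjusted p. The medians of the 3 lists were -0.07, -0.04 and 0.00. Parg, which breaks poly(ADP-ribose) chains, differed by -0.02. In USP18ko:IFNARko against USP18ko these 3 lists and the PARP family also had 0 calls, with 0, 1, 0 and 0 at an unadjusted p under 0.05, beside 4.95% of all genes.

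Interferon-response genes moved in the same direction as the called PARP genes. Of 8 measured, 6 rose in USP18ko against WT (median 1.73), where 1.15% of all genes were called, among them Ifit3 by 4.19, Irf7 by 3.40, Ifit1 by 4.87 and Ifi35 by 2.25. In USP18ko:IFNARko against USP18ko 7 of the 8 fell (median -2.03), where 1.51% of all genes were called. Stat2, part of the transcription factor complex downstream of the receptor, differed by 0.62 in USP18ko against WT and did not pass (limma adjusted p = 1.00). The increases of Parp9, Parp12 and Parp14 were smaller than those of Ifit1, Ifit3 and Irf7 and close to that of Ifi35, though probe sets differ in how they report a change.

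**Figure D4:**
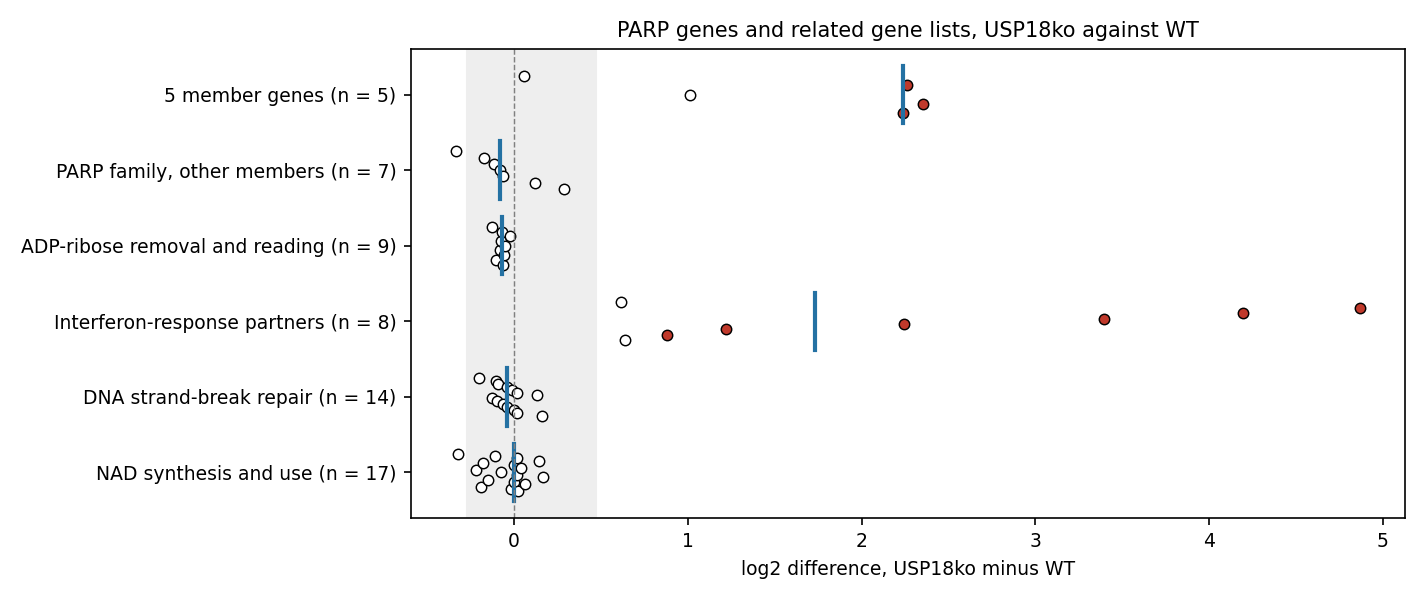
Log2 difference, USP18ko minus WT (horizontal axis), of the 5 genes and of the members of 5 gene lists; filled points have an adjusted p under 0.05, blue bars are medians and the grey band holds the middle 95% of all 12393 genes. Calls lie among the PARP genes of the top row and the interferon-response genes, and not among the other 4 lists.

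Some markers of microglia and other myeloid cells moved in the same arrays. Of 7 microglia markers 3 rose in USP18ko against WT, Aif1 by 1.93, Laptm5 by 1.25 and Itgam by 0.80, where 1.15% of all genes were called. P2ry12 differed by -0.35, Tmem119 by 0.41, Cx3cr1 by 0.35 and Csf1r by 0.89 without passing. The summed signal of the 7 was 2045 to 3395 in USP18ko, against 1360 to 1414 in USP18ko:IFNARko, 1355 to 1726 in IFNARko and 1082 to 1838 in WT. Of 5 perivascular macrophage markers 1 rose, Ms4a7 by 1.74, while Lyve1 differed by 0.85, Mrc1 by 0.46, Pf4 by 0.22 and Cd163 by 0.01 without passing. Their summed signal was 479 to 602 in USP18ko, against 266 to 327 in USP18ko:IFNARko, 364 to 546 in IFNARko and 225 to 375 in WT. The IFNARko arrays overlapped with the USP18ko arrays in this summed signal. For Ms4a7, the called marker of this list, they all lay below the USP18ko arrays, as they did for Parp9, Parp12 and Parp14. The other markers of the list, Mrc1, Cd163, Lyve1 and Pf4, went the other way. Their means were higher in IFNARko than in USP18ko, only slightly so for Lyve1, and the ranges of the groups overlapped. The share of all genes with the separation seen for Ms4a7 was not counted. Of 4 monocyte and neutrophil markers 1 rose, Plac8 by 3.35, while Ccr2 differed by 0.19. S100a8 differed by 1.90 and S100a9 by 1.63 without passing (limma adjusted p = 0.112 and 0.0894). The summed signal of these 4 was 461 to 651 in USP18ko, against 75.1 to 174 in USP18ko:IFNARko, 70.0 to 142 in IFNARko and 80.9 to 84.6 in WT. In USP18ko against WT, 5 microglia, 2 macrophage and 3 monocyte and neutrophil markers had an unadjusted p under 0.05, beside 4.6% of all genes. In USP18ko:IFNARko against USP18ko 3 of the 7 microglia markers fell, as did Ms4a7 and Plac8, where 1.51% of all genes were called. Of 6 astrocyte, 5 oligodendrocyte, 5 endothelium and 4 choroid plexus markers limma called 0, 0, 0 and 0 in USP18ko against WT. At an unadjusted p under 0.05 there were 1, 0, 0 and 0, beside 4.6% of all genes. Of 7 lymphocyte markers 0 passed by limma (0 at an unadjusted p under 0.05), with summed signals of 228 to 255 in USP18ko, against 233 to 262 in WT. No marker list had a value of 0, since the arrays give none, and the part of these cells in the levels of Parp9, Parp12 and Parp14 was not tested.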

How the data were processed

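RNA of 12 brain samples was hybridised to 1-colour arrays. The authors used the R package affy, per the submitters' processing notes, and deposited log2 signals, 1 per probe set. The sources used here give no package version, background step or normalization. Base 2 was read from the range of values. Of 22690 probe sets, 64 were controls, 20380 had 1 gene, 691 had several and 1555 were not listed. Entrez identifiers of 20351 matched the RefSeq table (GRCm38.p6).

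Each gene was represented by its brightest probe set on average over the 12 arrays. All arrays entered 1 limma fit (version 3.58.1, R 4.3.3) with genotype as the only term, 8 residual and 4.67 prior degrees of freedom, and two-sided tests. Member probe sets were also fitted with all 22626 non-control probe sets. With 3 arrays a group, the smallest exact permutation p is 0.1. Correlations of the deviations of same-numbered arrays were all above 0.1 in USP18ko:IFNARko against USP18ko alone (0.14 to 0.27). In USP18ko against WT they were -0.04, 0.22 and 0.12. Differently numbered arrays were not correlated, so whether numbers pair the arrays was not tested, and the labels do not say. The number of arrays limits the precision.

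Genes named are the 5 members, the targeted genes, up to 4 called genes per list by p, and the 3 closest profiles. Marker genes, chromosomal neighbours, uncalled list genes and the genes of the array checks were named after their values were seen. Members and lists were chosen with earlier results of these data known. Alternatives were other probe set summaries, filters, normalizations, variance models, array weights, a replicate block, an Eif2s3y covariate, the compared groups alone and each array left out.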

Additional observations from a re-analysis of the deposited data

Results flagged for a closer look

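The difference that Usp18 loss made to Parp9, Parp12 and Parp14 was not the same with and without the receptor gene, by the interaction test. That test includes USP18ko:IFNARko against IFNARko, where sex as read by Xist cannot be told apart from genotype. The interaction was -2.32 for Parp9 (limma adjusted p = 5.26e-05), from effects of -0.08 without the receptor gene and 2.24 with it. It was -2.53 for Parp12 (limma adjusted p = 1.42e-05), from -0.27 and 2.26, and -2.58 for Parp14 (limma adjusted p = 3.97e-04), from -0.23 and 2.36. Without IFNARko replicate 1 the effects without the receptor gene were 0.083, -0.30 and -0.0063 for Parp9, Parp12 and Parp14, and the interactions were -2.15, -2.57 and -2.36.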

How the results depend on the processing

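Over all alternatives, 641 of 661 member values kept direction and side of the threshold, 18 changed sign, all of them in differences that did not pass, and 2 newly passed. Many of these values could not change sign. Variance models, a cut-off on size, the replicate block, the compared groups alone and arrays left out of other groups do not alter a difference. The fit of each probe set kept the difference of the brightest one, so opposite signs on other probe sets are not counted. Such a sign was seen for Parp1 in USP18ko:IFNARko against IFNARko (-0.12, against 0.44). Parp9, Parp12 and Parp14 were called in USP18ko against WT, USP18ko:IFNARko against USP18ko and the interaction under every alternative that kept them. Leaving out 1 array gave 2.14 to 2.32, 2.13 to 2.37 and 2.23 to 2.55 in USP18ko against WT. A filter at the 40th percentile of mean signal removed these 3 genes and Parp3, so that 0, 0 and 0 members were called in those 3 comparisons. Array weights, whose estimation stopped before full convergence, gave 1 call in USP18ko:IFNARko against IFNARko, Parp12 (-0.30), and called Parp3 in USP18ko:IFNARko against USP18ko (-1.11). In IFNARko against WT, Parp12 turned to -0.013 with median centring, -0.047 with array weights and -0.018 with the Eif2s3y covariate (-0.13 to 0.11 with 1 array left out), Parp14 to 0.031 with the covariate (-0.33 to 0.032), and Parp1 to 0.035 with array weights (-0.42 to 0.039). In USP18ko:IFNARko against WT, Parp3 turned to -0.021 with median centring and -0.13 with array weights (-0.19 to 0.20). With the covariate Parp1 was -0.025 in USP18ko:IFNARko against USP18ko, and with array weights Parp9 was 0.068 in USP18ko:IFNARko against IFNARko (-0.19 to 0.083). The causes were not tested. With the replicate number as a block the members called were 3 in USP18ko against WT, 3 in USP18ko:IFNARko against USP18ko, 3 in the interaction and 0 in the others, so no call changed. Low signals of Parp3 and Parp14 have no detection calls.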
